A study of Mus musculus with 11 samples.

Results

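The 3 histone marks H3K4me3, H3K27me3 and H3K36me3 were compared with each other within quiescent satellite cells (QSCs), the resting stem cells of skeletal muscle, from young mice. Their peaks in these cells were pooled, peaks that shared at least 1 bp were joined, and every merged interval was classed by the marks it held. This gave 49781 merged intervals from 56758 peaks, where the 8 peak lists of the whole series gave 118948 merged regions from 212879 peaks. All listed peaks were used, so no further cut on score or width decided which intervals were kept. The lists themselves start at a peak caller score of 50.

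The QSCs came from hindlimb muscle of male C57BL/6 mice aged 2 to 3 months, and were sorted as VCAM+, CD31-, CD45- and Sca1- cells. Fixed cells were stored until enough had been sorted, so each library is a pool, and each mark was measured in 1 library without a replicate. Chromatin was sonicated to fragments of 150 to 500 bp and precipitated with antibodies from Abcam (H3K4me3 and H3K36me3) and Millipore (H3K27me3). For comparison, 5 further lists were used. Of these, 3 held the same marks in activated satellite cells (ASCs), which are QSCs of the same strain, sex and age kept in culture for 3 days, and 2 came from QSCs of 22- to 24-month-old mice of that strain and sex, for H3K4me3 and for H3K27me3. The label of the sorted cells was not checked against marker genes here, because positions are given in mouse build mm9 and no annotation of that build was used.

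H3K4me3 is laid down around the start sites of genes that are active or held ready for use. H3K27me3 is written by Polycomb repressive complex 2 and marks genes kept silent, and promoters that carry it together with H3K4me3 are called bivalent. H3K36me3 is written by SETD2, which travels with elongating RNA polymerase II, so it lies over the bodies of transcribed genes, downstream of the promoter. PRC2 acts poorly on histones that already carry H3K36 methylation.

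The H3K4me3 list held 24701 peaks that covered 37.4 Mb, with a median width of 1362 bp. The H3K27me3 list held 11658 peaks over 21.4 Mb, with a median width of 1228 bp, and 560 of its peaks were wider than 5 kb. The H3K36me3 list held 20399 peaks over 29.1 Mb, with a median width of 1103 bp, and 275 were wider than 5 kb. Each peak also has a score, read here as the peak caller's p-value on a negative log10 scale multiplied by 10, so that a score of 50 stands for 1e-05 and a score of 100 for 1e-10. The lists differed widely on this scale. The median score was 587.2 for H3K4me3, 102.8 for H3K27me3 and 83.8 for H3K36me3, and 76.0%, 51.3% and 39.3% of the peaks reached 100. Read depth is unknown from these lists, and a score rises with depth as well as with enrichment, so the lists differ in how much of each mark they can hold.

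Most intervals carried a single mark. Of the 49781 intervals, 44101 (88.6%) held 1 mark, 5189 (10.4%) held 2 and 491 (0.986%) held all 3. H3K4me3 alone was the most common class with 18558 intervals (37.3%), followed by H3K36me3 alone with 17179 (34.5%) and H3K27me3 alone with 8364 (16.8%). H3K4me3 with H3K27me3, the bivalent pair, made up 2555 intervals (5.13%, 95% Wilson interval 4.94 to 5.33), and H3K4me3 with H3K36me3 made up 2574 (5.17%, 4.98 to 5.37). The second of these numbers rested on low scores: with peaks that score at least 100 the classes held 2077 and 857 intervals, and with the 11658 highest peaks of each list 1292 and 355. H3K27me3 with H3K36me3 and no H3K4me3 was found in 60 intervals only (0.121%, 0.0937 to 0.155). Of the 551 intervals that held both H3K27me3 and H3K36me3, 491 (89.1%) also held H3K4me3. This share depended on the peaks kept, with 152 intervals with H3K4me3 and 14 without at scores of at least 100, but 140 with and 177 without among the 11658 highest peaks of each list.

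**Figure D1:**
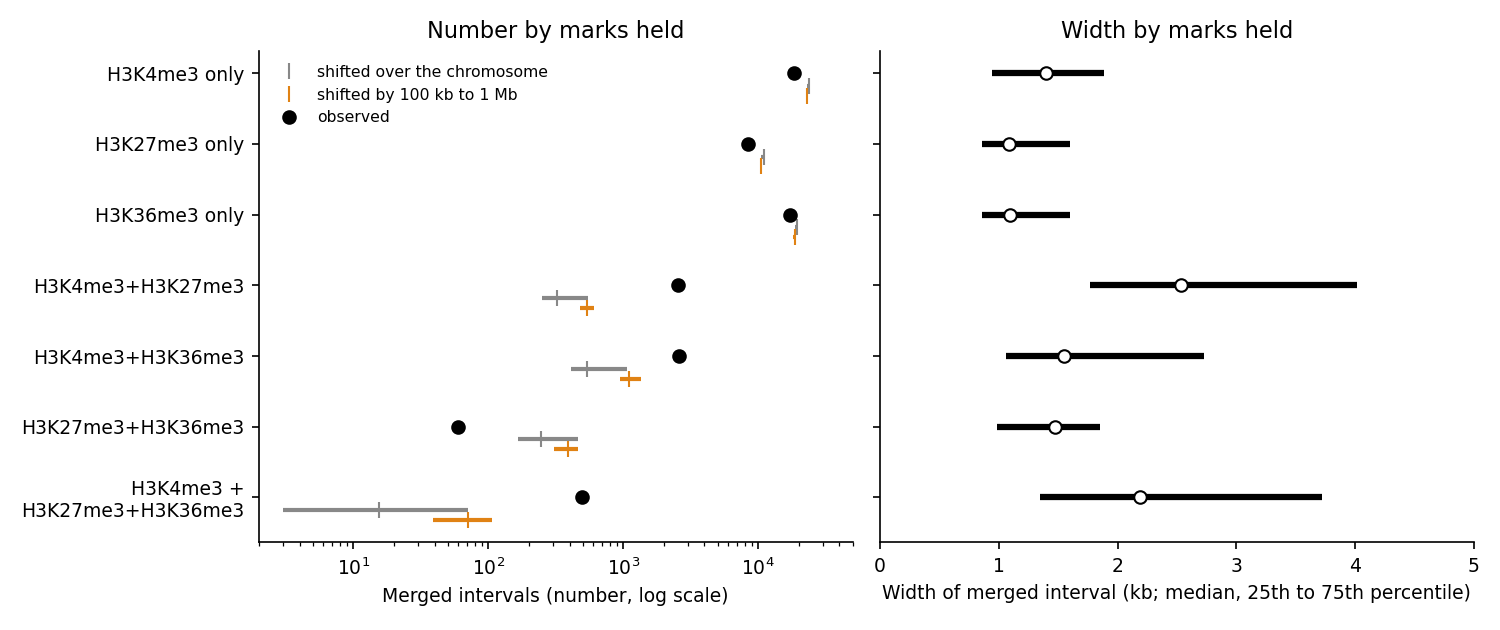
Number of merged intervals in young QSCs by the marks they held (left, log scale) and their width in kb (right, median with 25th to 75th percentile). On the left, points are the observed numbers, and bars with a tick are the range and mean after 200 shifts over the whole chromosome (grey) and 20 shifts of 100 kb to 1 Mb (orange). The observed number lies to the right of both bars for both H3K4me3 pairs and for all 3 marks together, and to the left of both for H3K27me3 with H3K36me3.

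Width followed the marks. Intervals with H3K4me3 and H3K27me3 were the widest class, with a median of 2537 bp and an upper quartile of 4018 bp. Those with all 3 marks had a median of 2190 bp, and those with H3K4me3 and H3K36me3 a median of 1551 bp. H3K4me3 alone spanned a median of 1399 bp, and H3K27me3 alone and H3K36me3 alone 1088 and 1093 bp. H3K27me3 with H3K36me3 had a median of 1471 bp. A joined interval is at least as wide as each of its peaks, and a wide peak is more likely to overlap another, so the joined classes are wider by construction. Exactly 2 peaks made up 2185 (85.5%) of the H3K4me3 with H3K27me3 intervals and 2439 (94.8%) of the H3K4me3 with H3K36me3 intervals. H3K27me3 peaks in the bivalent class had a median width of 2007 bp, against 1088 bp for H3K27me3 alone, and H3K4me3 peaks had a median of 1399 bp in both classes.

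To give a level for overlap that arises from density alone, 1 list was moved around each chromosome as a circle, by 200 evenly spaced distances, and the overlaps were counted again. A second set of 20 shifts moved it by 100 kb to 1 Mb to either side, which keeps peaks within the gene-rich or gene-poor stretch they came from. These levels are descriptions and carry no p-value. On both, H3K4me3 with H3K27me3 was the pair that exceeded its level the most, with 2555 intervals against a mean of 322.4 over the chromosome shifts (range 252 to 549) and 543.1 over the local shifts (475 to 610). H3K4me3 with H3K36me3 had 2574 against 539.2 (408 to 1066) and 1105 (949 to 1359). For H3K27me3 with H3K36me3 the order was turned, with 60 observed against 244.0 (165 to 466) and 393.0 (305 to 466). All 3 marks together were seen in 491 intervals against 15.4 (3 to 71) and 71.1 (39 to 107).

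Counted by peaks, 3228 of the 11658 H3K27me3 peaks (27.7%, 26.9 to 28.5) overlapped H3K4me3, which was 8.43 times the chromosome level and 4.68 times the local level. Of the H3K4me3 peaks, 3446 (14.0%, 13.5 to 14.4) overlapped H3K27me3. H3K36me3 overlapped H3K4me3 in 3148 of its 20399 peaks (15.4%, 14.9 to 15.9), or 5.21 and 2.40 times these levels. The third pair depended on the level chosen. H3K27me3 overlapped H3K36me3 in 549 peaks (4.71%, 4.34 to 5.11), 1.85 times the chromosome level, but 0.939 times the local level, whose range of 514 to 665 included the observed number.

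**Figure D2:**
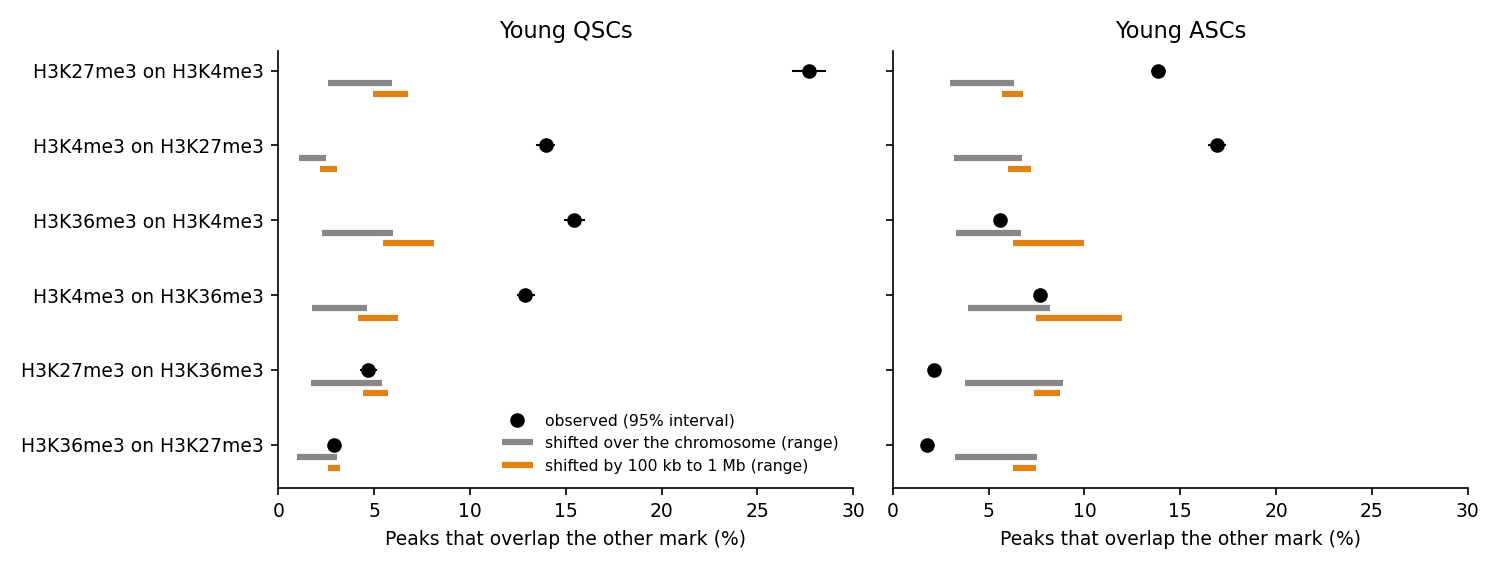
Share of peaks of 1 mark that overlap another by at least 1 bp (x axis, %), for the 6 directions, in young QSCs (left) and young ASCs (right). Points are observed shares with 95% Wilson intervals, which are narrower than the point in most rows; bars are the ranges after chromosome shifts (grey) and local shifts (orange). In QSCs the points of all 4 rows with H3K4me3 lie beyond both bars, whereas in ASCs the overlap of H3K4me3 and H3K36me3 lies at 7.70% and 5.62%, within or below the bars.

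This even result for H3K27me3 and H3K36me3 was the sum of opposite parts. Where neither peak touched H3K4me3, 61 of 8430 H3K27me3 peaks (0.724%, 0.564 to 0.928) overlapped H3K36me3, against a local level of 322.6 peaks (257 to 370), which is 0.189 times that level. Where the H3K27me3 peak overlapped H3K4me3, 483 of 3228 (15.0%, 13.8 to 16.2) overlapped H3K36me3, against 202.2 (150 to 255), which is 2.39 times the level. Likewise, 520 of the 3148 H3K36me3 peaks on H3K4me3 (16.5%) also overlapped H3K27me3, against 92.2 (74 to 114). In the full lists, the Polycomb mark and the gene body mark were thus rarely called at the same place away from H3K4me3. At H3K4me3 they were called together more often than the shifted lists gave. The split was not repeated with the 11658 highest peaks of each list, where 177 intervals held both marks without H3K4me3. Both marks gather at H3K4me3, however, and taking that into account removed most of the excess: 489 H3K4me3 peaks overlapped both, where the product of the shares of each mark among H3K4me3 peaks gives 444.5, a ratio of 1.10. The split by H3K4me3 was chosen after the pooled overlap had been seen.

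How the marks lay over each other differed by pair. Of the H3K4me3 peaks that overlapped H3K27me3, 1811 (52.6%) lay wholly inside it, and 395 (12.2%) of the H3K27me3 peaks lay inside H3K4me3. Several H3K4me3 peaks shared 1 H3K27me3 peak in 303 cases (9.39%), with up to 7 in the same domain. Of the H3K4me3 peaks that overlapped H3K36me3, 1360 (42.7%) lay inside it, and 685 (21.8%) of the H3K36me3 peaks lay inside H3K4me3. Of the H3K36me3 peaks on H3K27me3, 359 of 592 (60.6%) lay inside the H3K27me3 peak.

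The widest bivalent intervals each held several H3K4me3 peaks on 1 H3K27me3 peak. On chromosome 2, at chr2:105501836-105528602 of mm9 (26767 bp), 1 H3K27me3 peak with a score of 1015 covered 26702 bp and held 4 H3K4me3 peaks, the best with a score of 961.4. At chr2:71362750-71385795 (23046 bp), 1 H3K27me3 peak held 6 H3K4me3 peaks whose scores ran from 60.0 to 2176. At chr11:118901256-118923896 (22641 bp), 7 H3K4me3 peaks, 2 of them at a score of 3100, lay on 1 H3K27me3 peak of 21588 bp. Each of these 3 regions also had peaks in the ASC lists of H3K4me3 and H3K27me3 and in both old QSC lists, and had no peak in the ASC list of H3K36me3.

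The widest intervals of H3K4me3 and H3K36me3 had another shape. At chr11:120667534-120686739 (19206 bp), an H3K4me3 peak of 4122 bp with a score of 3100 overlapped only the end of an H3K36me3 peak of 15531 bp with a score of 515.2. At chr11:68908522-68923579 (15058 bp), an H3K4me3 peak of 6580 bp (score 3168) overlapped the start of an H3K36me3 peak of 9652 bp (score 2504). At chr6:115915344-115931199 (15856 bp), by contrast, 2 H3K36me3 peaks covered 15825 bp with a best score of 1422, and the 3 H3K4me3 peaks on them had scores of at most 98.7. The first 2 regions thus set a strong H3K4me3 peak at the edge of a H3K36me3 domain, and the last set weak H3K4me3 calls within a strong one.

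In the 60 intervals of H3K27me3 and H3K36me3 without H3K4me3 the H3K36me3 peak was mostly a low-scoring one. The widest, at chr9:57961894-57967045 (5152 bp), was an H3K27me3 peak with a score of 755.4 that held an H3K36me3 peak of 953 bp with a score of 63.5. Those at chr10:79411003-79414910 (3908 bp) and chr6:127913997-127917687 (3691 bp) held H3K36me3 peaks with scores of 77.5 and 121.3. Over the class, the median H3K36me3 score was 72.5, and 77.4% of its 62 H3K36me3 peaks scored under 100. Low scores were common outside the class too: H3K36me3 peaks with no other mark had a median of 81.2, and 63.3% scored under 100.

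**Figure D3:**
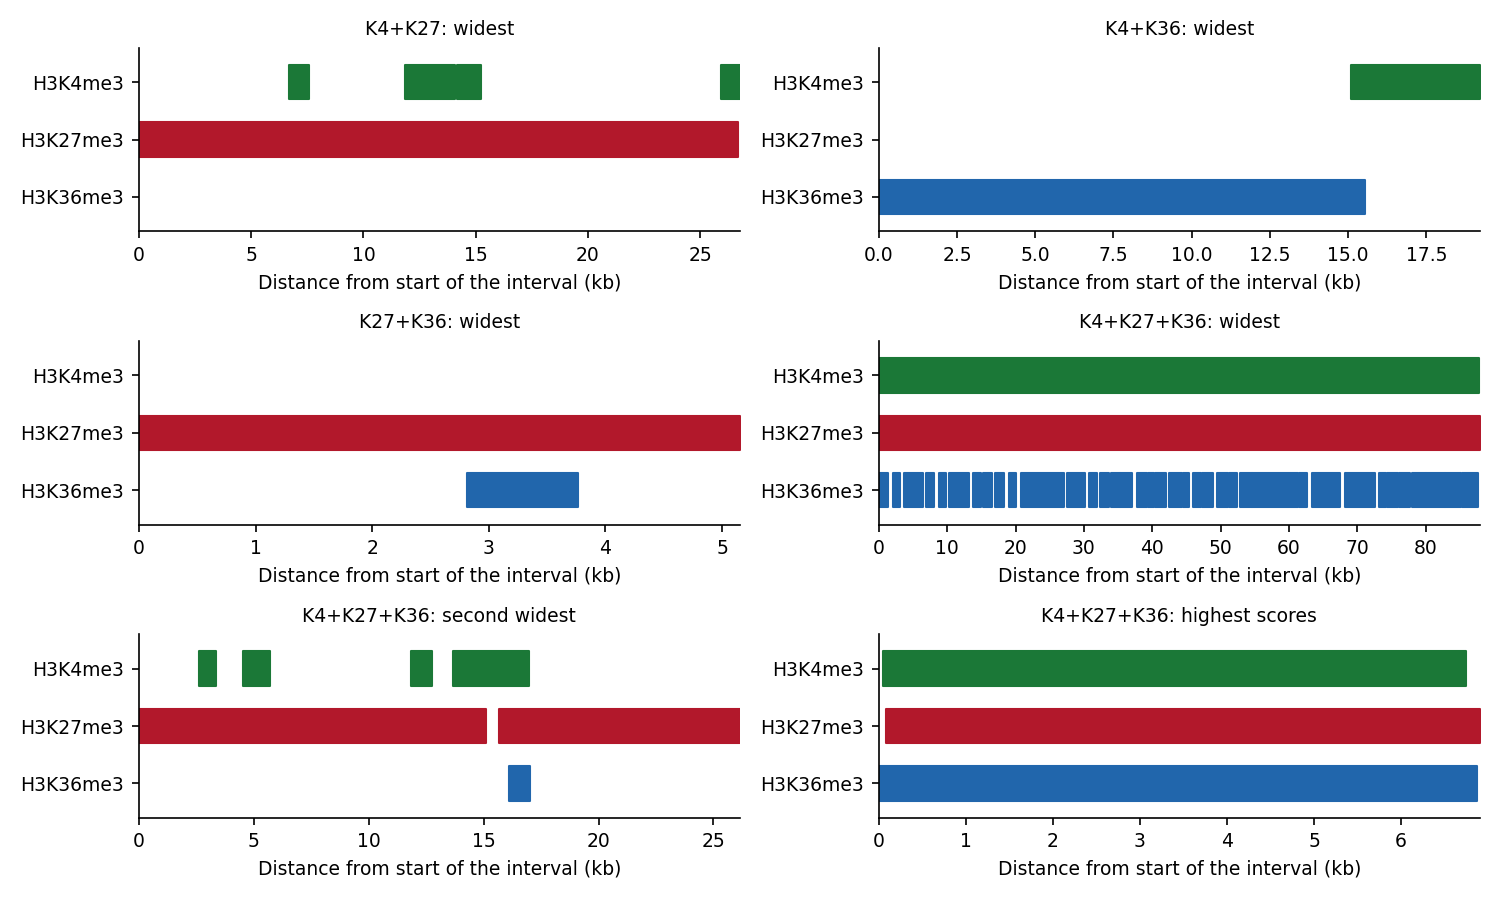
Peaks of the 3 marks along 6 named intervals (x axis, distance from the interval's start in kb; rows, the mark; K4, K27 and K36 in the titles stand for H3K4me3, H3K27me3 and H3K36me3). Narrow H3K4me3 peaks lie on 1 broad H3K27me3 peak in the widest bivalent interval, H3K4me3 and H3K36me3 meet at an edge in the widest interval of that pair, and the widest 3-mark interval is covered nearly end to end by all 3.

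Scores differed between the classes. H3K4me3 peaks that carried no other mark had a median score of 827.6, those with H3K27me3 524.8, those with H3K36me3 110.5 and those with both 496.2. Of the H3K4me3 peaks in the H3K36me3 class, 46.1% scored under 100, against 22.6% of those alone and 14.3% of those in the bivalent class. H3K27me3 peaks had a median of 84.7 alone, 293.9 with H3K4me3 and 342.0 with all 3 marks. H3K36me3 peaks had a median of 81.2 alone, 115.7 with H3K4me3 and 89.1 with all 3.

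When each list was split into deciles by score, H3K4me3 was overlapped by the other marks at different heights. H3K36me3 overlapped 22.8% (21.2 to 24.5) of the lowest decile of H3K4me3 peaks, with scores of 50 to 63.3, then 5.59% (4.75 to 6.56) of both the 7th and the 8th decile, and 11.4% of the highest decile. The local shift level over the same deciles was 3.77%, 5.31%, 5.78% and 6.80%, so that H3K4me3 peaks with scores of 1151 to 2548 overlapped H3K36me3 about as often as the shifted lists did. H3K27me3 was most frequent in the middle of the H3K4me3 list, at 25.9% (24.2 to 27.6) of the 5th decile, with 6.96% of the lowest and 7.21% of the highest. For H3K27me3 peaks, the share on H3K4me3 went from 8.40% in the lowest decile to 80.0% (77.6 to 82.2) in the highest, and for H3K36me3 peaks from 10.7% to 35.0% (32.9 to 37.0). The share of H3K36me3 peaks on H3K27me3 lay between 2.40% and 3.33% over all deciles, while its local shift level went from 2.18% in the lowest to 5.02% in the highest, so that the observed 2.99% was above the level at the low end and the observed 3.24% below it at the high end. Peaks of the higher deciles are wider (the median H3K27me3 width was 773 bp in the lowest and 4577 bp in the highest), and the shifted level of H3K27me3 on H3K4me3 went with it from 4.31% to 12.3%.

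**Figure D4:**
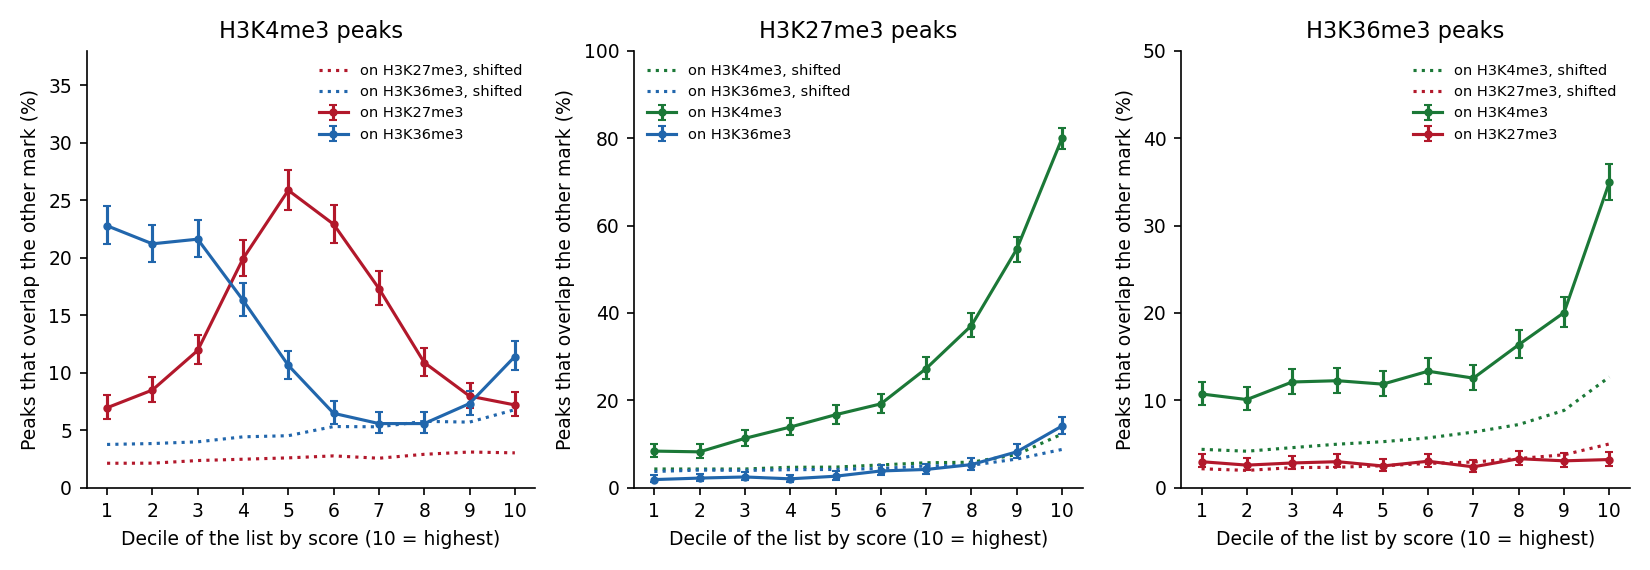
Share of peaks that overlap another mark (y axis, %) in each decile of the list by score (x axis, 10 is the highest), for H3K4me3, H3K27me3 and H3K36me3 peaks. Points with bars are observed shares with 95% Wilson intervals, and dotted lines are the means after local shifts. H3K4me3 peaks overlap H3K36me3 most at low scores and H3K27me3 most at middle scores, and the highest decile of H3K27me3 peaks lies on H3K4me3 in 80.0% of cases.

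The deciles also differed in how often they were found again. A peak of the same mark was present in ASCs for 28.7% of the lowest decile of H3K4me3 peaks, 92.1% of the 5th decile and 99.96% of the highest. The median widths of these deciles were 693, 1266 and 2314 bp. Wider peaks overlap another list more easily, and no shifted level is given for these shares. The H3K4me3 peaks that overlapped H3K36me3 most were therefore those with the lowest scores and the least recurrence, and the part of score and recurrence in the overlap was not tested.

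Bivalency and H3K36me3 met differently by H3K4me3 score. Among H3K4me3 peaks with a score under 100, H3K36me3 overlapped 12.4% (9.75 to 15.6) of the 493 with H3K27me3 and 22.9% (21.8 to 24.0) of the 5440 without. Between 100 and 1000 the shares were 12.8% (11.3 to 14.4) and 13.5% (12.6 to 14.3), whose intervals overlap. At 1000 and above they were 17.0% (14.9 to 19.2) of 1209 peaks with H3K27me3 and 6.20% (5.73 to 6.71) of 9325 without. The number with both marks was 0.562, 0.961 and 2.28 times the product of the shares in these 3 score ranges. Pooled over scores the shares came to 14.2% (13.1 to 15.4) and 12.7% (12.2 to 13.1), which hides that the order turned between weak and strong H3K4me3 peaks.

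H3K4me3 lay nearer to H3K36me3 than the shifted lists did. From an H3K4me3 peak to the nearest H3K36me3 peak the median was 21392 bp, against 58588 bp after local shifts (range 39479 to 71317) and 123945 bp after chromosome shifts. The distance depended on the peaks kept, with a median of 60871 bp at scores of at least 100 and 35951 bp for the 11658 highest peaks of each list. No shifted level is given for these cuts, so whether the nearness holds under them was not tested. Within 10 kb, 36.9% of H3K4me3 peaks had an H3K36me3 peak, against 20.0% after local shifts. In the other direction the median from H3K36me3 to H3K4me3 was 9288 bp, against 22704 bp locally, and 88.6% of H3K36me3 peaks lay within 50 kb of an H3K4me3 peak. Within 1 kb of H3K4me3 lay 19.8% of H3K36me3 peaks, against 10.0% after local shifts, and within 10 kb 51.8%, against 33.0%.

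H3K4me3 peaks with H3K27me3 lay farther from H3K36me3 than those without, although both lay nearer than after local shifts (medians of 57466 and 58849 bp). The median was 39128 bp (95% order statistic interval 35351 to 43103) for the 3446 bivalent peaks, those in 3-mark intervals included, and 19645 bp (18977 to 20326) for the 21255 others. For peaks with a score of at least 1000 the medians were 33090 bp (28111 to 39466) and 16931 bp (16009 to 17752), so the gap was there among the strong peaks too. Among H3K4me3 peaks without H3K27me3, 10.7% had H3K36me3 on both sides within 20 kb, 26.95% on 1 side and 49.6% on neither, and the rest overlapped it. After local shifts these were 5.74%, 18.6% and 70.7%. Among the bivalent peaks they were 4.67%, 20.0% and 61.1%, against 5.78%, 18.5% and 70.8%, so that H3K36me3 on both sides was nearer to the shifted level there.

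Coverage around the centre of H3K4me3 peaks, with both sides added, gave the shape of this. Around peaks without H3K27me3, H3K36me3 covered 9.86% of the bases within 500 bp of the centre, 3.79% at 1000 to 1500 bp, 5.45% at 9500 to 10000 bp and 3.99% at 47500 to 50000 bp, where the local level was 2.77% to 2.81%. Restricted to H3K4me3 scores of at least 1000, a split added after the data were seen, the central rise was gone: coverage was 2.70% within 500 bp, 1.93% at 500 to 1000 bp and 6.46% at 9000 to 9500 bp, against local levels of 2.93%, 2.92% and 2.95%. Strong H3K4me3 peaks without H3K27me3 thus had H3K36me3 at or below the local level out to 1500 bp from the centre and above it beyond.

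Around bivalent H3K4me3 peaks the profile was different. H3K36me3 covered 10.9% within 500 bp and 1.43% at 2500 to 3000 bp, which is below the local level of 2.87%, and it stood at 3.30% at 12500 to 15000 bp and 3.31% at the far end. The central rise remained at scores of at least 1000, with 11.3% within 500 bp and 2.62% at 1000 to 1500 bp. H3K27me3 covered 86.4% within 500 bp and 4.86% at 47500 to 50000 bp, against local levels of 2.01% and 2.11%, so Polycomb signal was raised over the whole 50 kb window. Around H3K4me3 peaks without H3K27me3, H3K27me3 covered 0.538% at 1000 to 1500 bp and 1.20% at 9500 to 10000 bp, below the local level of 1.56% to 1.58%. Near the centre these H3K27me3 values follow from how the classes were defined. The definition also reaches beyond the peak's edge, because any H3K27me3 peak that touches an H3K4me3 peak makes it bivalent, however far that peak extends. How much of the values beyond the edge comes from this was not tested.

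**Figure D5:**
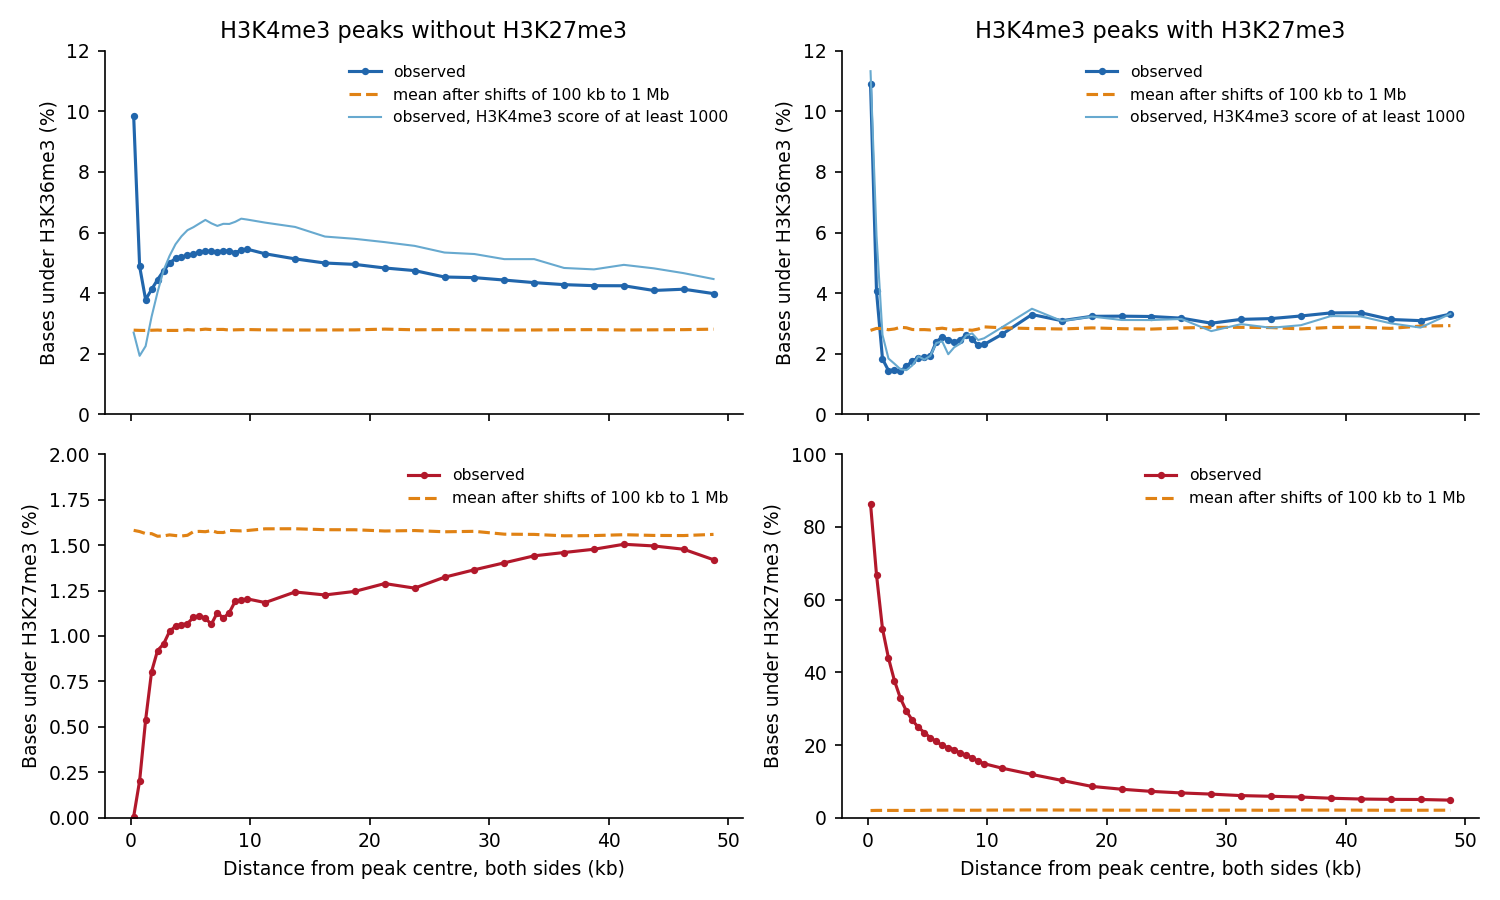
Bases covered by H3K36me3 (top, %) and H3K27me3 (bottom, %) by distance from the centre of H3K4me3 peaks (x axis, kb, both sides added), for H3K4me3 peaks without (left) and with (right) H3K27me3. Dots are observed coverage, the thin line is limited to H3K4me3 scores of at least 1000, and the dashed line is the mean after local shifts; the vertical scales of the bottom panels differ. H3K36me3 is 2.70% within 500 bp of strong H3K4me3 peaks without H3K27me3 and 11.3% within 500 bp of strong bivalent peaks.

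The distance from H3K27me3 to H3K36me3 was measured in the same way. The median from an H3K27me3 peak to the nearest H3K36me3 peak was 63112 bp, shorter than the 120097 bp of the chromosome shifts but longer than the 56991 bp of the local shifts (range 50127 to 63087). It was 139607 bp at scores of at least 100 and 105493 bp for the 11658 highest peaks of each list, cuts for which no shifted level is given. The distance again divided by H3K4me3. H3K27me3 peaks on H3K4me3 were a median of 37566 bp (33224 to 41284) from H3K36me3, nearer than their local level of 56551 bp. The 8430 H3K27me3 peaks without H3K4me3 were 72793 bp (70811 to 75449) away, farther than their local level of 57236 bp, and 5.34% of them had H3K36me3 within 5 kb, against 13.2% after local shifts. The 560 H3K27me3 peaks wider than 5 kb were 66725 bp (52559 to 74610) from H3K36me3, farther than their local level of 50006 bp, unlike H3K27me3 peaks on H3K4me3 of all widths, although 72.7% of them overlapped H3K4me3 (16.1% after local shifts).

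H3K27me3 peaks without H3K4me3 were nonetheless close to it. Their median distance to the nearest H3K4me3 peak was 10550 bp (10101 to 11118), against 25320 bp after local shifts, and 10.2% were within 1 kb. Split by class, the distance below its local level was the one to bivalent H3K4me3. Bivalent peaks are defined by overlap with this same H3K27me3 list, and the shifts break any clustering of H3K27me3 peaks with each other. The split therefore cannot tell nearness to bivalent H3K4me3 from nearness of H3K27me3 peaks to each other. A bivalent H3K4me3 peak was a median of 36521 bp away, against a local level of 187307 bp, whereas an H3K4me3 peak without H3K27me3 was 41758 bp away, against 33034 bp. By definition these peaks overlap no H3K4me3, while 5.20% of them did after local shifts. For H3K36me3 peaks without H3K4me3, the median distance to either kind was shorter than after local shifts. It was 13197 bp to H3K4me3 without H3K27me3, against 27148 bp locally, and 182535 bp to bivalent H3K4me3, against 212260 bp. At short range, however, bivalent H3K4me3 was rarer than after local shifts. It lay within 10 kb of 2.80% of these H3K36me3 peaks, against 5.37%, and within 50 kb of 18.0%, against 18.9%. The shifted shares include 0.890% that overlap it, which these peaks by definition do not.

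H3K36me3 peaks lay in runs. Joining H3K36me3 peaks less than 10 kb apart gave 10744 runs, of which 7193 were single peaks, and 827 runs of at least 5 peaks held 6103 peaks (29.9% of the list). These long runs had a median length of 23840 bp, and the longest reached 138881 bp. An H3K4me3 peak was present within 5 kb of exactly 1 end in 358 long runs (43.3%, 40.0 to 46.7), of both ends in 167 (20.2%) and of neither in 302 (36.5%). After local shifts the shares were 31.0%, 9.33% and 59.6%. H3K27me3 was within 5 kb of both ends in 3 runs (0.363%) and of 1 end in 57 (6.89%), against 2.77% and 12.2% after local shifts. Of the long runs, 39 (4.72%) held an H3K27me3 peak, against 16.1% after local shifts.

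The 491 intervals with all 3 marks were mostly compact. Exactly 3 peaks made up 416 of them (84.7%), and 472 (96.1%) had at least 1 base under all 3. The median best score was 653 for H3K4me3, 359.4 for H3K27me3 and 86.0 for H3K36me3, in the same order as in the whole lists. In 292 intervals (59.5%) the best H3K36me3 score was under 100, near the share in the whole H3K36me3 list, of which 39.3% reached 100. In 152 intervals (31.0%) every mark had a best score of at least 100. The widest, at chr8:126060928-126148832 (87905 bp), stood apart from the rest. It was 1 H3K4me3 peak of 87758 bp with a score of 982.3, 1 H3K27me3 peak of 87904 bp with a score of 330.4 and 37 H3K36me3 peaks over 73847 bp. It had peaks in 4 of the 5 other lists, all but old QSC H3K4me3. The next, at chr8:123592398-123618545 (26148 bp) and chr15:102746138-102771344 (25207 bp), were bivalent domains of the kind described above with 1 small H3K36me3 peak, of 888 bp and 548 bp, with scores of 64.2 and 53.8.

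In 5 intervals all 3 marks had a best score of at least 1000. At chr17:39979415-39986318 (6904 bp), 1 peak of each mark covered at least 96.9% of the interval, each with a score of 3100. A pair on chromosome 10, chr10:66700388-66704217 (3830 bp) and chr10:66687273-66690128 (2856 bp), lay close to each other, with lowest best scores of 1672 and 1350, and of the 5 other lists only ASC H3K36me3 had a peak there. The last, named after their values were seen, were chr16:57390867-57392246 (1380 bp) and chr16:11143612-11144873 (1262 bp), both with peaks in all other lists but ASC H3K36me3. In each of the 5, every mark covered 76.9% or more of the interval, unlike in the nested bivalent domains. The input libraries were not analysed here. Of the 491 intervals, 40 (8.15%) had a peak in all 5 other lists, against 51 (0.103%) of the 49290 intervals with 1 or 2 marks. The latter were narrower, with a median width of 1265 bp against 2190 bp. The 5 lists also cover all 3 marks, so an interval with 1 or 2 marks had to hold a further mark in other cells to be counted. The contrast thus follows in part from how the classes were defined, and no shifted level is given for it.

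The classes differed in how often they were found in the other cells. Of the bivalent QSC intervals, 93.2% had H3K4me3 and 95.5% had H3K27me3 in ASCs, and 94.99% and 85.3% in old QSCs, against local shift levels of 10.5%, 11.1%, 8.22% and 4.202%. Of the intervals with H3K4me3 and H3K36me3, 41.9% (40.0 to 43.8) had H3K4me3 in ASCs, 43.0% had H3K36me3 and 29.1% had H3K27me3, against local shift levels of 9.75%, 11.2% and 8.44%, and 52.6% had H3K4me3 in old QSCs, against 7.84%. For H3K4me3 alone, 82.1% (81.5 to 82.6) had H3K4me3 in ASCs and 82.5% in old QSCs, against 6.83% and 5.31%. A restriction to QSC scores of at least 100 was added after the data were seen. With it, H3K4me3 was found in ASCs in 49.7% of the H3K4me3 with H3K36me3 intervals and in 93.7% of those with H3K4me3 alone. This cut does not make scores equal between the classes, whose median H3K4me3 scores over all peaks were 110.5 and 827.6. The part of score in the gap was not tested. Of the 3-mark intervals, 77.6% had H3K4me3, 91.0% had H3K27me3 and 18.7% (15.5 to 22.4) had H3K36me3 in ASCs, against 10.5%, 10.3% and 11.3%, so that H3K36me3 was much nearer to its shifted level than the other marks. Of the H3K27me3 intervals with no other mark, 66.8% had H3K27me3 in ASCs and 12.1% in old QSCs, against 10.4% and 2.75%.

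The same classes built from the 3 ASC lists had other shares. Of 104897 ASC intervals, 4803 (4.58%) held H3K4me3 and H3K27me3, 2006 (1.91%) H3K4me3 and H3K36me3, 529 (0.504%) H3K27me3 and H3K36me3 and 243 (0.232%) all 3. The H3K4me3 with H3K36me3 intervals had a median width of 3372 bp in ASCs and 1551 bp in QSCs. In ASCs, H3K4me3 overlapped H3K36me3 in 7.70% of its peaks, 0.863 times the local level, where in QSCs it was 12.9% and 2.61 times. H3K27me3 overlapped H3K36me3 in 2.13% of ASC peaks, 0.261 times the local level, and in 4.71% and 0.939 times in QSCs. With 1 library per mark and cell state, a difference between the cell states and a difference between libraries cannot be told apart. Peaks were called in different libraries, so their overlap cannot place the marks on 1 nucleosome or in 1 cell, and all intervals given here cover counting error only.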

How the data were processed

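ChIP-seq peak lists of H3K4me3, H3K27me3 and H3K36me3 in young QSCs were compared, with 3 lists of young ASCs and 2 of old QSCs for reference. The authors aligned reads to mm9 with Bowtie, per the labels, called peaks against input and deposited positions with a score per peak; peak names carry MACS, and the score runs from 50 upwards with a pile-up at 3100. Versions are not given in the sources used here. Total reads are unknown, so precision is given as 95% Wilson intervals or, for medians, binomial order statistic intervals.

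Overlap meant at least 1 bp, and distance ran edge to edge. Chance levels came from 200 chromosome shifts and 20 local shifts, taking each chromosome to end at the last position that any list holds. Named regions were the 3 widest of each class of 2 or 3 marks and the 3 highest 3-mark intervals by lowest best score. Counts in 13 comparisons equalled those of bedtools 2.31.1, and functions were tested on simulated peaks. Python 3.11.15, numpy 2.4.6, pandas 2.3.3 and scipy 1.17.1 were used. Gene lists and marker genes were not analysed here, since the annotation at hand is of another build. The 3 input libraries were not analysed here. Classes, lists and regions were chosen with earlier results of these data known.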

Additional observations from a re-analysis of the deposited data

How the results depend on the processing

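With 1 library per mark, no replicate could be left out, and no sentence here rests on a test. No paired analysis was possible because each mark has a single library. Keeping scores of at least 100 left 857 intervals of H3K4me3 with H3K36me3, 14 of H3K27me3 with H3K36me3 and 152 of all 3 marks. Overlap over the chromosome level became 11.8 times for H3K27me3 on H3K4me3, 4.40 for H3K36me3 on H3K4me3 and 2.30 for H3K36me3 on H3K27me3 (all peaks: 8.43, 5.21 and 2.00), and the median distances 60871 bp (H3K4me3 to H3K36me3), 139607 bp (H3K27me3 to H3K36me3) and 2042 bp (H3K27me3 to H3K4me3). Fewer H3K36me3 peaks lengthen these distances by construction. With the 11658 highest peaks of each list the classes held 1292 (H3K4me3 with H3K27me3), 355, 177 and 140 intervals, the first 2 ratios were 7.07 and 2.42, and the distances 35951, 105493 and 26917 bp. Joining peaks less than 1 kb apart gave 5.45 for H3K36me3 on H3K4me3 and distances of 22402, 58055 and 4500 bp. Without X and Y the first distance was 20239 bp. Counting a peak only where 50% or more of the shorter peak was shared gave ratios of 11.2, 7.38 and 2.65. Local shifts gave 4.68, 2.40 and 0.992, the last turned from above to below its level, and shifted over observed distances of 2.74, 0.903 (also turned) and 6.12, in place of 5.79, 1.90 and 14.6. Over covered bases, H3K4me3 with H3K27me3 took 4.85%, H3K4me3 with H3K36me3 3.25% and all 3 marks 0.681%. The other 22 values moved by less than their counting error, or by under 1.5 times for counts.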

Other observations

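The classes were spread unevenly over the chromosomes. The X chromosome held 869 intervals, or 5.22 per Mb, where the autosomes held 12.9 to 32.4 per Mb. H3K4me3 alone made up 70.1% of the X intervals, against 31.2% to 45.6% on the autosomes. H3K36me3 alone made up 14.3% on X, against 26.3% to 40.2%, and H3K27me3 alone 7.13%, against 11.2% to 22.4%. The bivalent class took 2.88% of the X intervals, against 4% to 6.55%, whereas H3K4me3 with H3K36me3 took 4.83%, within the autosomal range of 3.98% to 6.99%. The mice were male, which carry a single X, and the shares of the classes on X rest on few intervals, with 25 bivalent ones and 6 with all 3 marks.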
